A study of Homo sapiens with 2 samples.

Results

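Expression was described for 7 genes that start and restrain blood coagulation at the cell surface or that make and control plasmin, in a human colorectal carcinoma line. They were F3, TFPI, TFPI2, PLAU, PLAUR, PLAT and SERPINE2, chosen by symbol out of 54261 features of a read count table because F3 and TFPI were high in 1 column of it. The cells were RKO, cultured with fetal bovine serum. One library came from cells transfected with siRNA against HNRNPM, an RNA-binding protein that takes part in pre-mRNA splicing, and is called the siHNRNPM library. The control library came from cells given the control siRNA, siNC. Neither the siRNA sequences nor the interval between transfection and harvest is stated in these sources. With 1 library in each group there is no replicate check and no test, and since the genes were picked on this same contrast every value below is a description.

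Tissue factor, encoded by F3, is the membrane receptor for coagulation factor VIIa and starts the extrinsic pathway, and many carcinoma cells carry it. TFPI, the tissue factor pathway inhibitor, blocks factor Xa and the complex of tissue factor with factor VIIa through Kunitz-type domains. On the other arm, urokinase (PLAU) and tissue-type plasminogen activator (PLAT) cut plasminogen into plasmin, which degrades fibrin and matrix, urokinase doing so largely while bound to its receptor PLAUR. Serpins, among them SERPINE2 (protease nexin 1), inactivate these activators.

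Reads in genes totalled 13056118 for the siHNRNPM library and 19931360 for the control library. Levels are given as CPM, reads divided by the TMM-scaled library size and multiplied by 1000000, and a gene was counted as measured at a CPM of 1 or more in either library, which held for 12925 genes. Intervals are at the 95% level and cover counting error, not the differences between cultures. HNRNPM had 1042 reads (79.6 CPM) in the siHNRNPM library and 2870 reads (144 CPM) in the control library, or 55.2% of the control level. Of the epithelial markers checked, KRT8 (34.4 and 27.5 CPM), KRT18 (33.1 and 31.8 CPM), EPCAM (11.5 and 9.0 CPM) and CDX2 (8.10 and 10.7 CPM) were measured, each given for the siHNRNPM library and then the control library. CDH1 had 1 read in the siHNRNPM library and 10 in the control library, KRT19, VIL1 and LGALS4 had at most 1 read in either, and KRT20 had none, so several defining markers of differentiated colon epithelium were absent or nearly so in both libraries.

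The promoter sequences of the 2 genes that were higher, F3 and TFPI, and of the urokinase receptor gene PLAUR, which was lower, are shown first. F3 and PLAUR share some short letters, while their read levels went opposite ways. Any part of these letters in the levels was not tested. Sequences and coordinates are from RefSeq on GRCh38.p14, 5′ to 3′ on the strand of the gene, from 250 bases before to 50 after an annotated start. Capitals mark TGANTCA, the letters that AP-1 proteins bind, and GGGCGG, the GC box bound by SP1, each on either strand.
F3, chr1:94541710-94542009, minus strand: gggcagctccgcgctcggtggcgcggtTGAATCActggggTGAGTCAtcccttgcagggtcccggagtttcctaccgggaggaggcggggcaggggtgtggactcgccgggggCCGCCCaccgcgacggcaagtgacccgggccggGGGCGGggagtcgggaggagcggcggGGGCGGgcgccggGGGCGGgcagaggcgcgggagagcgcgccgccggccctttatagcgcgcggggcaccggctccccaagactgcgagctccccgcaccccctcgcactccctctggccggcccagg
TFPI, chr2:187554386-187554685, minus strand: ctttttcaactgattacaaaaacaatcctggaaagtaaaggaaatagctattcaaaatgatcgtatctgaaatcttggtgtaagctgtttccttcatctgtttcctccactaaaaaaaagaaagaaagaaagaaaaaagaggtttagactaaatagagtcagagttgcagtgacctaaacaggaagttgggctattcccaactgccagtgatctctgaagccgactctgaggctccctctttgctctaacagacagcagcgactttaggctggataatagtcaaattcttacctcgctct
PLAUR, chr19:43670120-43670419, minus strand: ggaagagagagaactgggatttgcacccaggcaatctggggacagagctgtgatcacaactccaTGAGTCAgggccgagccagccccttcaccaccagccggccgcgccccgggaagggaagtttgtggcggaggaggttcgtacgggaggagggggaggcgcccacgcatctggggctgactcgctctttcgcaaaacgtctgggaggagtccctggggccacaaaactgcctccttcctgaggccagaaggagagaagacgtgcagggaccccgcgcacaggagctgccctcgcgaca
The F3 window held 2 matches of TGANTCA, which began 223 and 210 bases before the start site, and 4 of GGGCGG. It also held 1 match of GCGNGGGCG, the letters bound by EGR1, beginning 82 bases before the start and overlapping a GC box match. The PLAUR window held 1 TGANTCA match, 186 bases before the start, 1 GCGNGGGCG match and no GGGCGG. In the TFPI window none of these letters was found, and its GC content was 39.3%, against 77.3% for F3 and 64.0% for PLAUR and a median of 58.7% over all 35116 windows in the RefSeq table.

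Of all those windows, 7.71% held TGANTCA, 45.0% GGGCGG and 9.43% GCGNGGGCG. Windows of 6 of the 7 genes were searched, 8 windows in all. PLAT, on chromosome 8, was left out of this search, so nothing is said of its promoter. Of the others, TFPI2 had 1 TGANTCA, 2 GGGCGG and 1 GCGNGGGCG match. Of the 2 PLAU windows 1 held 3 GGGCGG matches and the other none, and the 2 SERPINE2 windows held 1 and 2. A strict form of the NF-kB motif found in 1.91% of windows, and GGAATG, the TEAD letters found in 14.0%, occurred in none of the 8. Only exact matches of that NF-kB form were counted, and the F3 window shown holds a near match that it leaves out. The search thus does not show that F3 or the other genes lack an NF-kB site. Such matches are letters only and no binding was measured.

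F3 and TFPI were both higher in the siHNRNPM library. F3 had 1141 reads, or 87.2 CPM (82.2 to 92.4), in the siHNRNPM library and 977 reads, or 49.1 CPM (46.1 to 52.3), in the deeper control library. The level was 1.77-fold that of the control library, a log2 ratio of 0.83 (0.70 to 0.95). TFPI had 5333 reads, or 407 CPM (397 to 419), in the siHNRNPM library and 4173 reads, or 210 CPM (204 to 216), in the control library. Its ratio was 1.94-fold, 0.96 on the log2 scale (0.90 to 1.02). For both genes the counting intervals of the 2 libraries were far apart.

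These ratios lay near the upper end of the whole table. F3 ranked 486th and TFPI 362nd from the highest of the 12925 measured log2 ratios, whose median was -0.01 with quartiles of -0.21 and 0.18. Ratios of sparsely read genes scatter more, and among the 5070 genes that reached a CPM of 50 in either library F3 ranked 22nd and TFPI 15th. F3 reached that CPM only in the siHNRNPM library, where it was higher (87.2 CPM against 49.1 CPM in control). Both genes were chosen for being high in that library, so their ranks follow in part from the choice and are no separate result. Of those genes, 95% had log2 ratios between -0.55 and 0.44.

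Markers of other cell types moved with the siHNRNPM library in part. Of 20 liver-type markers 14 had reads in the siHNRNPM library and 7 in the control library, with summed levels of 35.8 CPM in siHNRNPM against 1.36 CPM in control. AFP had 174 reads against 1 in control, SERPINA1 177 against 6 and ALB 77 against 0, while APOA1, APOC3, TTR, HP, RBP4 and FGG had none in either library. For comparison, F3 was 38.0 CPM and TFPI 198 CPM higher in the siHNRNPM library. The part of such cells or transcripts in these results was not tested. Fibroblast markers summed to 4.81 and 2.11 CPM in the siHNRNPM and control libraries (6 and 5 of 8 with reads, DCN and THY1 with none). Endothelial markers, of interest because endothelium makes TFPI, summed to 12.5 CPM in siHNRNPM against 13.03 CPM in control, of which ESAM made up 11.08 and 11.11 CPM. In the siHNRNPM and control libraries KDR had 6 and 14 reads, TIE1 5 and 8 and TEK 2 and 9, and PECAM1 and CDH5 had at most 2. Monocyte markers summed to 886 CPM in siHNRNPM against 766 CPM in control, nearly all from CD68, while CD14, LYZ and TYROBP had no reads and PTPRC had at most 2. CD163 had 6 reads against 0 in control and CSF1R 6 against 15. In bulk RNA, a different share of cells making a transcript and a different amount per cell cannot be told apart.

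TFPI2 encodes a related Kunitz-type inhibitor that acts on plasmin and is laid down in the matrix. It was practically unread, with 0 reads in the siHNRNPM library and 1 in the control library. Taking a count of 0 to allow up to 3 reads puts its limit at 0.229 CPM in the siHNRNPM library (0.282 CPM by the exact 2-sided Poisson interval), so no ratio is given. Of these 2 inhibitor genes, the reads thus came almost wholly from TFPI in both libraries.

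**Figure D1:**
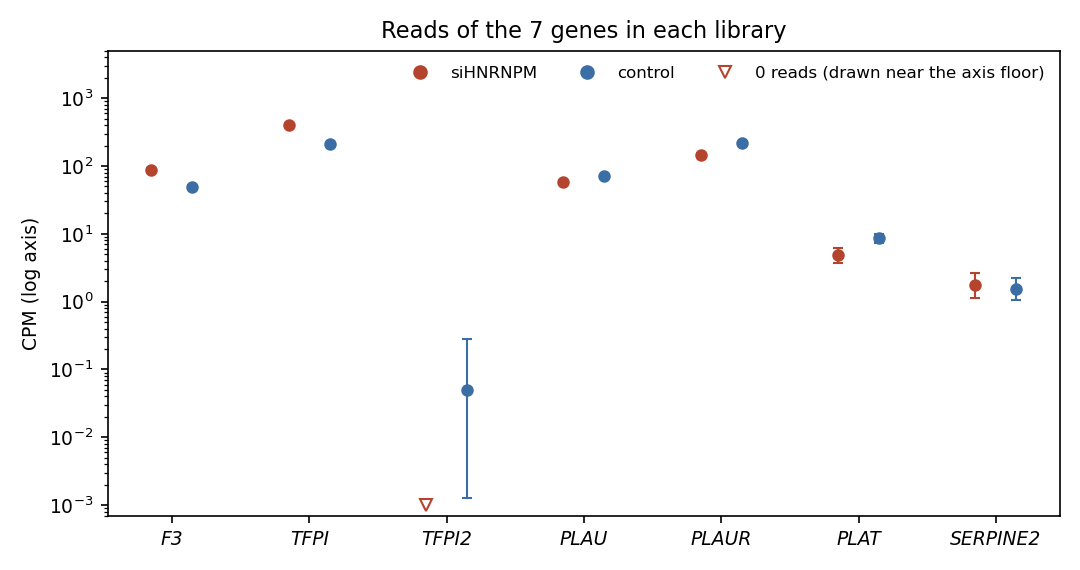
CPM of the 7 genes on a log axis, in the siHNRNPM library (red, left of each pair) and the control library (blue, right), with exact 95% Poisson intervals as bars and 1 library a group. F3 (87.2 against 49.1 CPM) and TFPI (407 against 210 CPM) are higher in the siHNRNPM library, PLAU, PLAUR and PLAT are lower, and TFPI2 has 0 reads and 1 read.

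The plasminogen activators and the urokinase receptor went the other way. PLAU, encoding urokinase, had 753 reads or 57.5 CPM (53.5 to 61.8) in the siHNRNPM library and 1399 reads or 70.4 CPM (66.7 to 74.1) in the control library. That was 81.8% of the control level, a log2 ratio of -0.29 (-0.42 to -0.16). PLAUR, the glycolipid-anchored receptor that holds urokinase at the cell surface, had 1932 reads or 148 CPM (141 to 154) in the siHNRNPM library and 4331 reads or 218 CPM (211 to 224) in the control library. Its log2 ratio was -0.56 (-0.64 to -0.48), or 1.48-fold lower, just short of the 1.5-fold used here for a call. Among the abundant genes it ranked 121st from the lowest, and PLAU 649th.

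PLAT was sparsely read. It had 64 reads or 4.89 CPM (3.77 to 6.24) in the siHNRNPM library and 170 reads or 8.55 CPM (7.31 to 9.94) in the control library. The ratio was 1.75-fold lower, -0.81 on the log2 scale, and its interval of -1.24 to -0.38 shows how little the depth fixes its size. With PLAU and PLAT summed, plasminogen activator reads came to 62.4 CPM in siHNRNPM against 78.9 CPM in control, a log2 ratio of -0.34 (-0.46 to -0.22), set almost wholly by PLAU.

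SERPINE2, whose product inhibits thrombin, urokinase and plasmin, stood at the edge of detection. It had 23 reads or 1.76 CPM (1.11 to 2.64) in the siHNRNPM library and 31 reads or 1.56 CPM (1.06 to 2.21) in the control library. The log2 ratio of 0.17 had an interval of -0.67 to 1.0, so neither a rise nor a fall of more than 1.5-fold is outside what these reads allow.

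By the rule of at least 1.5-fold with an interval that leaves out a ratio of 1, 2 of the 6 measured members (F3 and TFPI) were called higher, and 5.0% of all measured genes were called so. One of the 6 (PLAT) was called lower, against 4.56% of all measured genes. None reached 2-fold in either direction, a size that 2.45% of measured genes reached upward and 1.49% downward. The interval alone lay above 1 for 2 members and below 1 for 3 (PLAU, PLAUR and PLAT), and over all measured genes for 22.0% and 26.1%. Nothing is read from these counts, since the set was picked with the contrast known.

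**Figure D2:**
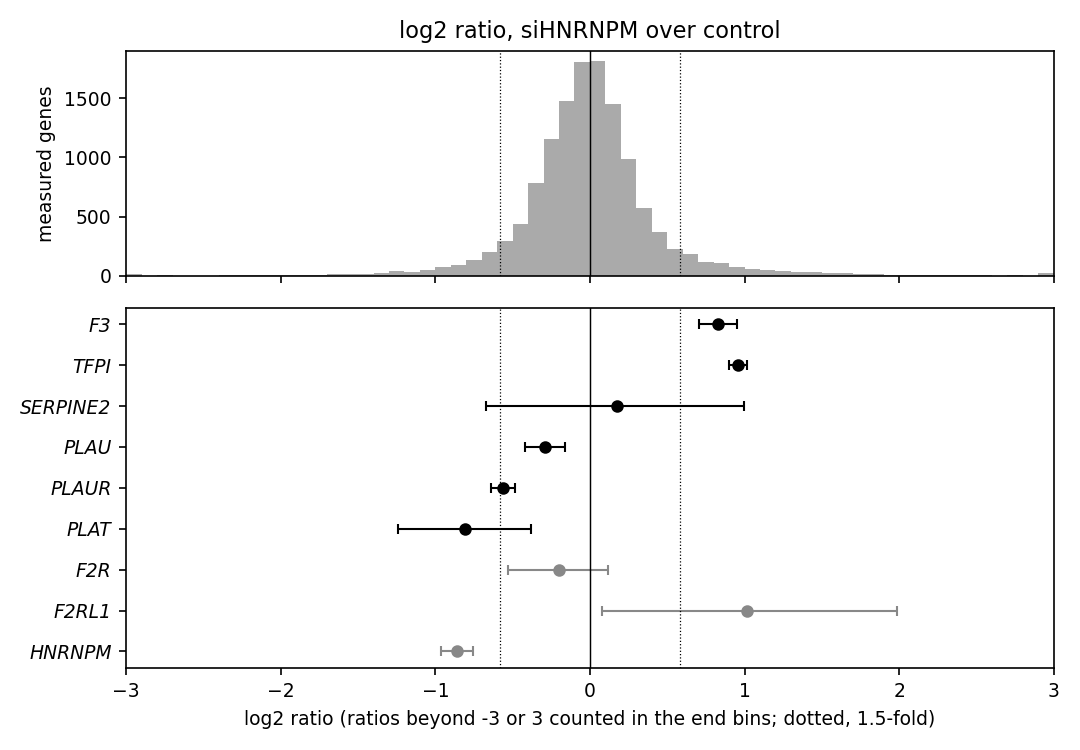
Log2 ratios, siHNRNPM over control. Top, histogram of the 12925 measured genes; bottom, the 6 measured members (black) and 3 other genes (grey) with 95% counting intervals. F3 and TFPI lie to the right of the 1.5-fold line, PLAU and PLAUR lie between the lines on the left, and PLAT lies beyond the left one with a wide interval.

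Levels of different genes were compared per length, as RPKM over the merged exons of GENCODE 29. In the siHNRNPM library the order was TFPI (34.8 RPKM), PLAUR (33.1), F3 (30.3), PLAU (19.5), PLAT (0.739) and SERPINE2 (0.198). In the control library it was PLAUR (48.9 RPKM), PLAU (23.9), TFPI (17.9), F3 (17.1), PLAT (1.29) and SERPINE2 (0.175). In the control library PLAUR and PLAU thus stood above both F3 and TFPI, whereas in the siHNRNPM library PLAU was the lowest of these 4. TFPI stood 1.15-fold above F3 in the siHNRNPM library and 1.05-fold above it in the control library. The counting intervals of TFPI and PLAUR and those of PLAUR and F3 overlapped in the siHNRNPM library, as did those of TFPI and F3 in the control library, so the order within these pairs was not resolved. The order of the first 4 depends on the length used: over the longest transcript PLAUR led in both libraries, at 91.7 RPKM in siHNRNPM and 135 RPKM in control, and TFPI (27.3) came before PLAU (26.5) in the control library.

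**Figure D3:**
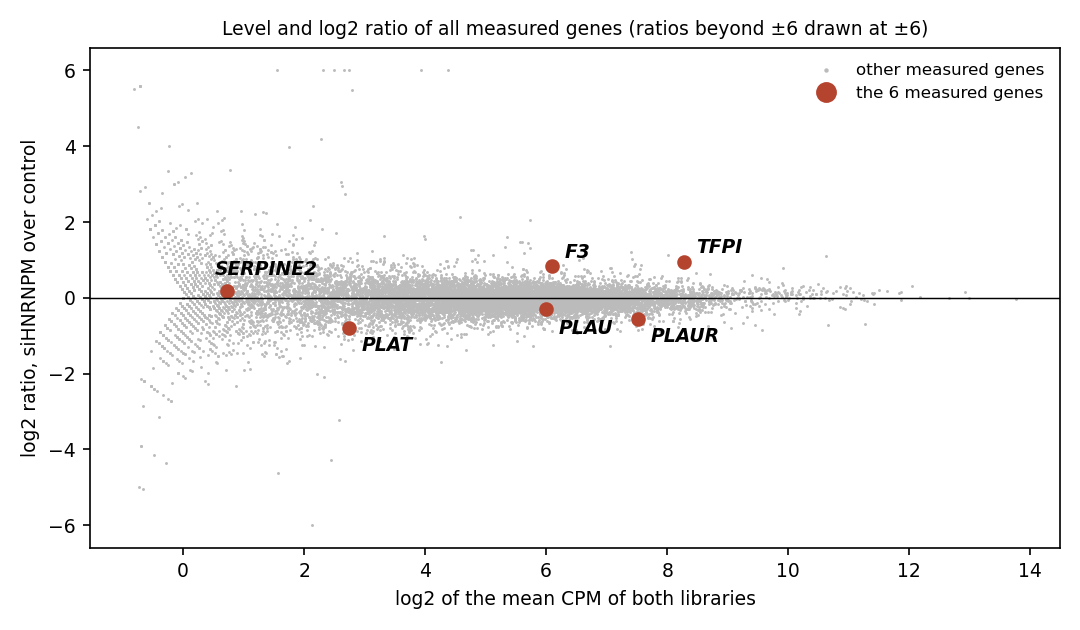
Log2 of the mean CPM of both libraries (horizontal) against the log2 ratio of siHNRNPM over control (vertical) for all 12925 measured genes (grey) and the 6 measured members (red). F3 and TFPI lie along the upper edge of the cloud at their level, PLAUR near its lower edge, and PLAT and SERPINE2 lie in the part where sparse reads spread the cloud.

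Ratios of reads between partner genes within a library do not depend on how the libraries were scaled. The siHNRNPM library had 4.67 TFPI reads for each F3 read and the control library 4.27. The F3 to TFPI ratio in the siHNRNPM library was 0.914 of that in the control library, with an interval of 0.830 to 1.01, so a change of the receptor relative to its inhibitor was not resolved at this depth. There were 0.390 PLAU reads for each PLAUR read in the siHNRNPM library and 0.323 in the control library, a ratio of ratios of 1.21 (1.09 to 1.34). Urokinase reads were thus less reduced than those of its receptor. PLAU reads per PLAT read were 11.8 and 8.23 in the siHNRNPM and control libraries (ratio of ratios 1.43, 1.05 to 1.96).

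The activators were also set against SERPINE2. For PLAT over SERPINE2 the read ratio of the siHNRNPM library was 0.509 of that of the control library (0.264 to 0.987), from 64 and 23 reads in siHNRNPM against 170 and 31 in control. PLAU over SERPINE2 was not resolved, at 0.726 (0.406 to 1.31).

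**Figure D4:**
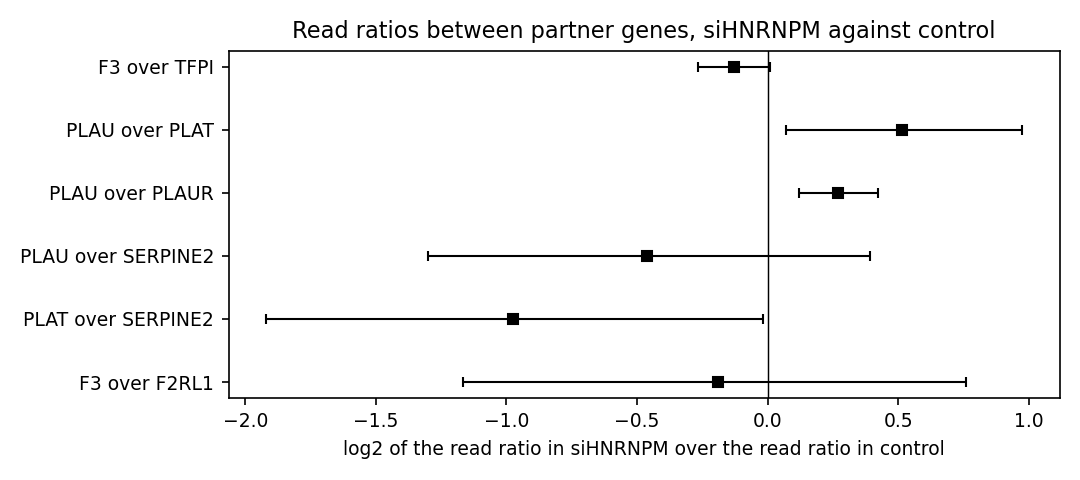
Read ratio of 6 gene pairs in the siHNRNPM library over the same ratio in the control library, on the log2 scale with exact conditional 95% intervals. PLAT is lower relative to SERPINE2, PLAU is higher relative to PLAUR and to PLAT, and the interval of F3 over TFPI includes 0.

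Of 23 other genes of coagulation (factors, fibrinogen, processing, transport and protease-activated receptors), 9 were measured and 9 had no read in either library. The interval lay above a ratio of 1 for 2, below it for 3 and spanned it for 4, with a median log2 ratio of -0.12. Over all measured genes 22.0% of intervals lay above and 26.1% below, the shares to set beside this list and those that follow. They are not matched for read level, and well-read genes have narrower intervals. Prothrombin (F2) had 1 read in each library, and F7 and F10, whose products act with tissue factor, had none. MCFD2, a cargo receptor subunit for factors V and VIII, had a log2 ratio of -0.86 (-0.94 to -0.79), and the factor VIII gene F8 -0.53 (-0.86 to -0.20), from 113 reads against 248 in control. VKORC1, the vitamin K epoxide reductase, had -0.12 (-0.20 to -0.04). F2RL1, which encodes the receptor PAR2 that the tissue factor complex can cleave, had 24 reads against 18 in the control library, a log2 ratio of 1.02 (0.08 to 1.99). F2RL1 counted as measured only through the siHNRNPM library, at 1.83 CPM against 0.905 CPM in control. The F3 to F2RL1 read ratio was not resolved between the libraries, at 0.876 (0.445 to 1.69). The thrombin receptor gene F2R had 127 reads against 222 in control and a log2 ratio of -0.20 (-0.53 to 0.12).

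Among 11 other anticoagulant genes, 4 were measured, with 1 interval above a ratio of 1, 2 below and 1 spanning it, and a median of -0.14. The endothelial protein C receptor gene PROCR had a log2 ratio of 0.13 (0.07 to 0.20), the protein S gene PROS1 -0.15 (-0.25 to -0.05) and ANXA5, encoding a phospholipid-binding annexin, -0.26 (-0.30 to -0.22). Thrombomodulin (THBD) and antithrombin (SERPINC1) had no reads. By the 1.5-fold rule none of the 4 measured anticoagulant genes was called, against 5.0% of all measured genes called higher and 4.56% called lower. Nothing is read from a count over 4 genes.

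Of 22 other genes of plasminogen activation, 12 were measured, 5 with an interval above a ratio of 1, 5 below and 2 spanning it, and the median was -0.04. S100A10, which with ANXA2 forms a plasminogen-binding complex at the cell surface, had 1374 reads against 3172 in the control library, a log2 ratio of -0.60 (-0.70 to -0.51). Its partner ANXA2 had -0.16 (-0.19 to -0.12). HGF, a plasminogen-related growth factor that urokinase can activate, had 883 CPM against 619 CPM in the control library, a log2 ratio of 0.51 (0.48 to 0.55). MST1, another plasminogen-related gene, had -0.77 (-1.29 to -0.27), from 46 reads against 119 in control, and the serpin gene SERPINB6 had 0.36 (0.26 to 0.46). Plasminogen itself (PLG) had 3 reads in the siHNRNPM library and 0 in the control library.

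Of 13 listed cell-surface partners of the urokinase receptor, 7 were measured, with 6 intervals below a ratio of 1 and 1 above, and the median log2 ratio was -0.28. Over all measured genes 26.1% of intervals lay below, and the median was -0.01. By the 1.5-fold rule 1 of the 7, ITGB5, was called lower, against 4.56% of all measured genes. Neither share was matched for read level, and the partners were well read, which narrows their intervals. The integrin genes ITGB5, ITGA3 and ITGAV had -0.65 (-0.77 to -0.53), -0.40 (-0.52 to -0.29) and -0.28 (-0.36 to -0.20), and the receptor gene EGFR had -0.39 (-0.54 to -0.23). ITGB1 was the exception at 0.15 (0.14 to 0.17), with 3918 CPM against 3523 CPM in the control library.

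Plasmin can activate the proenzymes of some metalloproteinases. Of 21 metalloproteinase and inhibitor genes 9 were measured, 3 with an interval above a ratio of 1, 1 below and 5 spanning it, and the median was 0.10. The collagenase gene MMP1 had 235 reads against 234 in the control library, a log2 ratio of 0.61 (0.34 to 0.88). The stromelysin gene MMP10 had 0.97 (0.46 to 1.48), from 76 reads against 59 in control, and MMP25 had 0.76 (0.14 to 1.39), from 48 against 43 in control. The membrane-type metalloproteinase gene MMP14 had the most reads of the metalloproteinases, 1112 against 1622 in control, with a log2 ratio of 0.06 (-0.05 to 0.17). The inhibitor gene TIMP1 had -0.26 (-0.31 to -0.20).

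Transcription factors known to act on the F3 or PLAU promoter were all 22 measured, with 3 intervals above a ratio of 1, 12 below and 7 spanning it, and a median of -0.12. Over all measured genes 22.0% of intervals lay above and 26.1% below, without matching for read level. Well-read genes have narrow intervals, so small ratios such as that of SP1 (-0.09) are among the 12. The AP-1 subunit genes did not go one way. FOS and JUNB had log2 ratios of -1.05 (-1.36 to -0.75) and -0.48 (-0.69 to -0.27), and FOSB had 0.31 (0.13 to 0.48). JUN, the subunit gene with the most reads, had 507 CPM against 542 CPM in control, or -0.10 (-0.14 to -0.05), while the intervals of FOSL1 (0.06), FOSL2 (-0.05) and JUND (-0.05) spanned 0. ETS1, whose product acts on the PLAU promoter, had 388 CPM against 676 CPM in the control library, or -0.80 (-0.85 to -0.75). EGR1 had -0.59 (-0.76 to -0.41). The promoters shown for F3 and PLAUR both hold AP-1 and EGR1 letters, while the log2 ratios of these genes were 0.83 and -0.56. Neither binding nor activity of these factors was measured, and their part in either ratio was not tested.

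**Figure D5:**
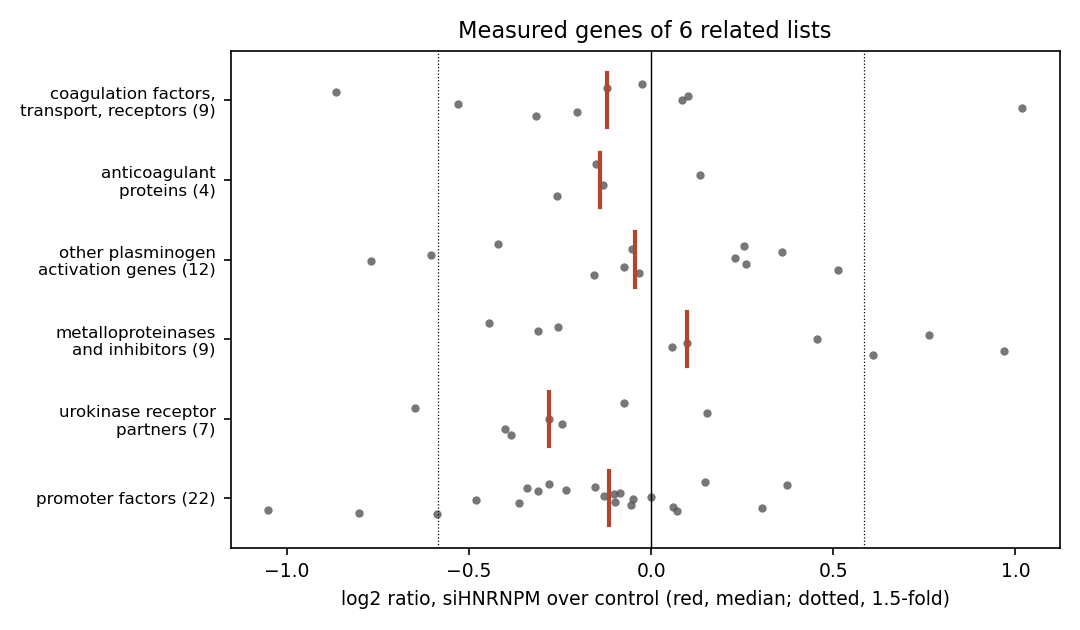
Log2 ratios of siHNRNPM over control for the measured genes of 6 related lists (grey points, number measured in brackets, red bars for medians, dotted lines at 1.5-fold). The urokinase receptor partners have the lowest median of these lists, at -0.28, and the metalloproteinases and their inhibitors the highest, at 0.10.

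In the longest annotated 3′ UTR, the sequence GTGAGAA occurred in PLAUR alone of the 7 genes. It was looked for because earlier work on these counts had linked it to lower ratios. Over 10800 measured genes with a 3′ UTR, 14.7% held it, with a median log2 ratio of -0.14, against -0.01 for the others. These medians come from the same counts that pointed to GTGAGAA, so they are no separate check. Differences in 3′ UTR length were not taken into account. The PLAUR site lies at bases 265 to 271 of a 3′ UTR of 362 bases (ENST00000339082.7) and is printed, with the 7 letters in capitals, because PLAUR, of the 3 lower members, had the most reads.
PLAUR 3′ UTR site: actttgggaggGTGAGAAaggaagatctc
It was present in 1 of the 6 PLAUR coding transcripts with an annotated 3′ UTR, and the counts per gene do not tell which transcript was read. The pentamer ATTTA of AU-rich elements, present in 74.2% of these 3′ UTRs, occurred 6 times in the 1235 bases of F3, 17 times in the 2706 of TFPI and 14 times in the 1424 of TFPI2. It occurred 2 times each in PLAU (932 bases), PLAT (760) and SERPINE2 (755), and was not found in the 362 bases of PLAUR. Only the longest 3′ UTR of each gene was searched for ATTTA, so the other PLAUR 3′ UTRs may hold it. The median log2 ratio was -0.05 for measured genes that hold ATTTA in the longest 3′ UTR and 0.04 for those that do not.

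The genes nearest to F3 and TFPI in level and ratio were named over these 2 libraries, among protein-coding genes with a mean CPM within 1.5-fold. For F3, of 2670 such genes, ZFYVE27 (log2 ratio 0.85), PPRC1 (0.88) and ROMO1 (0.77) were nearest. For TFPI, of 597 such genes, the heme oxygenase gene HMOX1 (1.13), GANAB (0.63) and AZIN1 (0.56) were nearest, with differences in log2 ratio of 0.17, 0.32 and 0.40. The nearest ratio was thus further off for TFPI than for F3, which had more genes in its level range.

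Positions in GENCODE 29 on GRCh38 are 94529225 to 94541800 on the minus strand of chromosome 1 for F3 and 187464230 to 187565760 on the minus strand of chromosome 2 for TFPI. PLAU lies at 73909177 to 73917497 on the plus strand of chromosome 10 and PLAUR at 43646095 to 43670547 on the minus strand of chromosome 19. None of the 7 genes had a transcript listed outside the primary assembly. PLAU shares 916 exon bases with C10orf55 on the opposite strand, which had 21 reads in the siHNRNPM library and 15 in the control library. Whether strand was used in counting was not given, and PLAU had 753 reads in the siHNRNPM library and 1399 in the control library. TFPI shares 118 exon bases with an antisense gene, AC007319.1, that was not analysed here.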

How the data were processed

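RNA-seq read counts per gene symbol, as deposited by the authors without normalization, were used for 1 siHNRNPM and 1 control library of RKO cells, grouped by the treatment labels, each column being tied to its library by its title. HISAT2 2.0.4 and GRCh38 are listed per the submitters' processing notes, with no stated role. The read counter, the annotation, the use of strand and the handling of multi-mapped reads are not stated in these sources.

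Counts were scaled by TMM (edgeR 4.0.16, R 4.3.3), with factors of 1.002 and 0.9976, and expressed as CPM. Log2 ratios (siHNRNPM over control) were computed over the whole table, with 0 reads set to 0.5, and filtered at a CPM of 1. Intervals of ratios are exact Clopper-Pearson intervals of the read split, those of CPM exact Poisson and those of ratios of ratios exact conditional (scipy 1.17.1). All cover counting error only, since each group had 1 library. PCR copies are not independent molecules, so the intervals may be too narrow even for that error. The procedure was also run on simulated counts that held counting error only and no true ratio near 1.5-fold. That run does not bear on differences between cultures or on PCR copies.

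The members, gene lists, 1.5-fold rule and sequence letters were chosen with earlier results of these data known. Named were all members, HNRNPM, F2R, F2RL1, the 3 nearest genes of F3 and TFPI, up to 4 genes a list ranked by the size of the log2 ratio where the interval left out 1, and marker genes. Some genes named by this rule are not reported here. ANXA2, ITGB1, MMP14, JUN, FOSB, FOSL1, FOSL2, JUND, F2, F7, F10, THBD, SERPINC1 and PLG were named after their values were seen. Alternatives covered scaling, filter, fold, depth and gene length.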

Additional observations from a re-analysis of the deposited data

How the results depend on the processing

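The log2 ratios of the 6 measured members moved little under total-count, DESeq2 1.42.0, upper-quartile and protein-coding TMM scaling and with the control library thinned to the depth of the siHNRNPM library. They ran from 0.81 to 0.86 for F3, 0.93 to 0.99 for TFPI, -0.30 to -0.26 for PLAU, -0.57 to -0.53 for PLAUR, -0.86 to -0.77 for PLAT and 0.16 to 0.28 for SERPINE2. Counts of 2 members called higher and 1 called lower held under these settings and at a CPM of 5 or more, but with 2-fold required both became 0. Without a CPM filter the median of the urokinase receptor partners was -0.075 in place of -0.28, since genes with few reads entered, and that of the other plasminogen activation genes was 0.02 in place of -0.04. Per-length levels depend on the length used, as given with them. No library could be left out, and no paired analysis was possible because each group had 1 library. Depth limits PLAT, SERPINE2, TFPI2 and F2RL1 most.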
